A study of Mus musculus with 7 samples.

Results

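Of the 73736 accessible sites that the deposited ATAC-seq table lists on the mouse autosomes, 14461 (19.6%) had their midpoint within 1 kb of an annotated transcription start site (TSS), and these promoter sites are described here. The TSSs were those of curated RefSeq transcripts of mm10, coding or non-coding, and the distance ran from the midpoint of a site to the nearest of them. A further 6135 autosomal sites lay 1 to 5 kb from a TSS and 53140 lay over 5 kb away, and both serve as the comparison. The sites were chosen by position alone, so neither their width nor their signal entered the choice.

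The study asked how chromatin accessibility depends on Smad2 and Smad3, the transcription factors that carry Nodal and activin signals into the nucleus. Accessibility was measured in epiblast-like cells (EpiLCs), which are made from naive embryonic stem cells and resemble the primed epiblast, at day 2, after 48 h in medium with 20 ng/ml activin A and 12 ng/ml Fgf2. WT EpiLCs came from clone CCE, and Smad2/3 DKO EpiLCs from clone KT15.1F6, which carries the Smad2 tm1Rob allele on both copies and a CRISPR/Cas9 nickase deletion around exon 1 of Smad3. Both clones are of the 129/Sv//Ev strain, and 3 differentiations of each were profiled, with 75000 cells per transposition in 2 technical replicates. Tn5-treated genomic DNA of WT EpiLCs (100 ng, 1 library) served as the control in site calling. With 1 clone per genotype, a difference between the clones and an effect of the genotype cannot be told apart. The deposited values are 1 log2 mean of normalised reads per genotype and site, so the spread between differentiations was not available for any value below and no difference could be tested against it. A fold here is a description of 2 group means. Depth is known only as the mean reads at each site, since no total per library is given.

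In ATAC-seq, the Tn5 transposase inserts adapters where DNA is not wrapped in nucleosomes. An active promoter keeps a gap between nucleosomes just upstream of its TSS, and this gap appears as an accessible site. Many mammalian promoters lie in CpG islands, stretches in which CpG dinucleotides have been kept because they are seldom methylated, and such promoters tend to be open in most cell types. Promoters poor in CpG are more often used in particular tissues, and much of the accessibility that distinguishes cell types lies at enhancers away from promoters.

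The promoter sites ranged from CpG islands to sequence with almost no CpG, and 7 of them are printed to show that range beside the differences described further on. Each sequence is 240 bases of mm10 around the midpoint of the site, 5′ to 3′ on the strand of the gene, with every CpG in capitals. The promoter sites of Sp4 (chr12:118301721-118301960, minus strand) and Kremen1 (chr11:5261536-5261775, minus strand) are CpG-rich, with 19 and 36 CpGs in these bases. Sp4, which encodes a GC-box binding factor, had the highest WT level of all promoter sites, and Kremen1, which encodes a Dickkopf receptor, was among the 10 with the most positive difference at a mean level of at least 4.
Sp4: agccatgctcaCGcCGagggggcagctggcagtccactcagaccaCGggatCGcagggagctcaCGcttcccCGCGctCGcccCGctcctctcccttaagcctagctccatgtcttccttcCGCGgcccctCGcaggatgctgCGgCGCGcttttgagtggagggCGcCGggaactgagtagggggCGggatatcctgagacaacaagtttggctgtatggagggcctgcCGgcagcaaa
Kremen1: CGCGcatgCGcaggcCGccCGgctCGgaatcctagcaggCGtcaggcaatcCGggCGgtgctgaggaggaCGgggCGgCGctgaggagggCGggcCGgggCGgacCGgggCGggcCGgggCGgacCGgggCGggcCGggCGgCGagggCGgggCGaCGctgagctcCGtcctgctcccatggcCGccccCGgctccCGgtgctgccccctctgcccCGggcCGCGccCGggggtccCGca
The bases shown at Smad3 (chr9:63758096-63758335, minus strand) lie just upstream of the TSS of the gene inactivated in the DKO clone and hold 31 CpGs, and the site at Peg13 (chr15:72810261-72810500, minus strand), an imprinted non-coding RNA gene, holds 12.
Smad3: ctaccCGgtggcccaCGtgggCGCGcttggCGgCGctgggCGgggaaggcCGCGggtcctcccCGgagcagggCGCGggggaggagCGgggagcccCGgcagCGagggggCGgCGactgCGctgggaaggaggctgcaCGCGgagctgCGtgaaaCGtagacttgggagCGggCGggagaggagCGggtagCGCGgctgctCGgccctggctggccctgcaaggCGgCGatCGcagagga
Peg13: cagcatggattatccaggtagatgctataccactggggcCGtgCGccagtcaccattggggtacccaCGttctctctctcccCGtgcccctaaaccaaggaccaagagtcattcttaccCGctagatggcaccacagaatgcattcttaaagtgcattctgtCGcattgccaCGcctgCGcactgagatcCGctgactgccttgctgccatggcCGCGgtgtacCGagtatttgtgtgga
The sites at Lefty1 (chr1:180934556-180934795, plus strand), which encodes a Nodal antagonist and is a direct target of the pathway, at Mx2 (chr16:97535076-97535315, plus strand), an interferon-induced GTPase gene, and at Scn7a (chr2:66784856-66785095, minus strand), a sodium channel gene, hold 6, 1 and 2 CpGs. These 3 sites were lower in DKO than in WT EpiLCs.
Lefty1: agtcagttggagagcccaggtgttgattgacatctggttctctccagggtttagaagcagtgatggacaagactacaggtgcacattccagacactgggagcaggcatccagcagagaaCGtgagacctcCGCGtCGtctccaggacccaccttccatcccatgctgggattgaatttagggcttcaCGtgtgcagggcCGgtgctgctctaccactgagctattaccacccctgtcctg
Mx2: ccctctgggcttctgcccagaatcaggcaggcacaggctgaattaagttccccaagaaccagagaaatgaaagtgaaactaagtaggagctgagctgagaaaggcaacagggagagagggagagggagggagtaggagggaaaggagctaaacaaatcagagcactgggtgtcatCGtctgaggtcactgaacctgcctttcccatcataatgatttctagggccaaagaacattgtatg
Scn7a: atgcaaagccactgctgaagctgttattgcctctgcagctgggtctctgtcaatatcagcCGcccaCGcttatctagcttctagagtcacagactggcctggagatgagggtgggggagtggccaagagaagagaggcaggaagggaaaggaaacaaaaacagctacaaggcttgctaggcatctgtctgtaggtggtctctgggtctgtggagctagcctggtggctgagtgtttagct
Kremen1 held 11 matches to the GC box (GGGCGG, either strand) in these bases, Smad3 held 3, and Sp4 and Scn7a held 1 each. The sequences at Peg13, Lefty1 and Mx2 held none.

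Promoter sites were wider and had more reads than the rest. Their median width was 750 bp (quartiles 480 to 1110 bp, range 150 to 5550 bp), against 360 bp both at 1 to 5 kb and over 5 kb. Their median level was 6.70 in WT EpiLCs (quartiles 5.50 to 7.75) and 6.72 in DKO EpiLCs (quartiles 5.51 to 7.75), on the log2 scale of mean normalised reads. The WT median corresponds to 104 reads per site, against 28.1 reads (a level of 4.81) over 5 kb from a TSS. Since a wider site collects more reads, levels were also expressed per kb of site. The WT median was then 7.05 for promoter sites, 6.38 at 1 to 5 kb and 6.37 over 5 kb, so promoter sites held more reads for their width as well.

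The level fell steeply within the 1 kb limit. In bins of 250 bp, the WT median was 6.58 in the bin just upstream of the TSS and 6.74 in the bin just downstream, and it was highest, at 7.33, for midpoints 250 to 500 bp downstream. In DKO EpiLCs the same 3 bins had medians of 6.63, 6.78 and 7.30. The WT median was 4.80 in the outermost upstream bin (750 to 1000 bp) and 5.00 in the outermost downstream bin, beside 4.87 and 4.94 just beyond the limit. Width followed the same course, with medians of 670 and 750 bp beside the TSS, 1120 bp at 250 to 500 bp downstream, and 365 and 430 bp in the outermost bins.

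**Figure D1:**
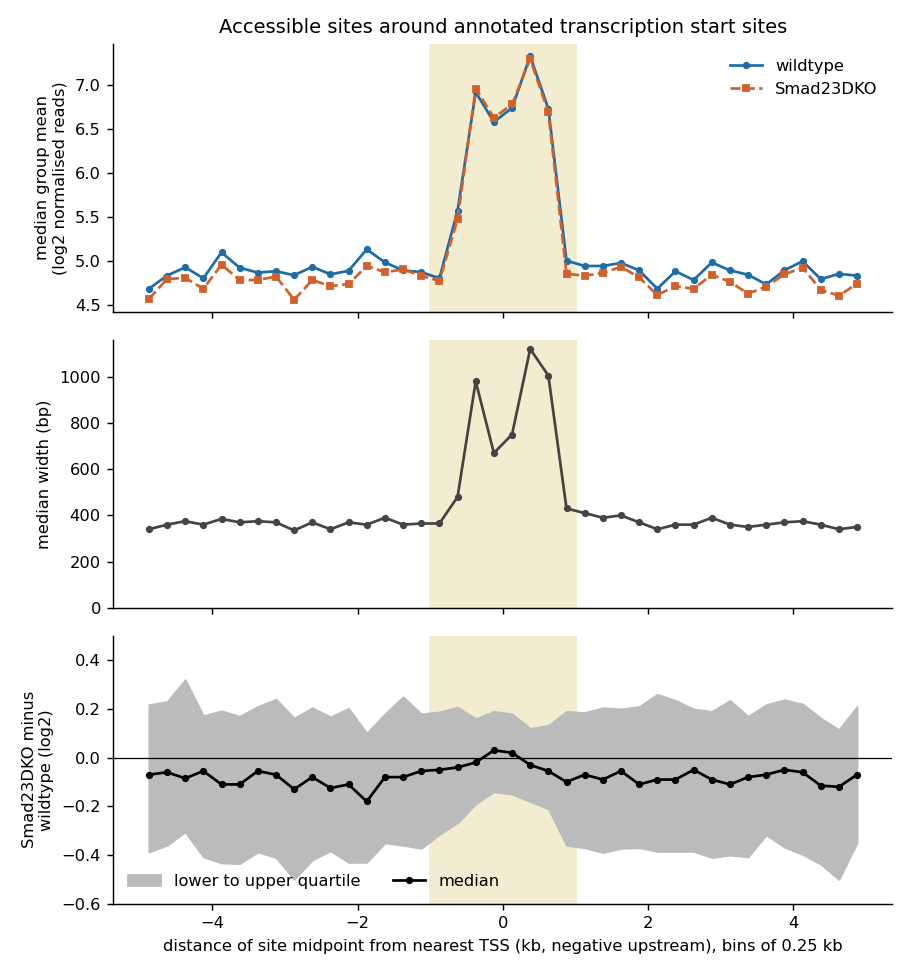
Median level per genotype (log2 mean normalised reads), median width (bp) and Smad2/3 DKO minus WT difference (log2, line for the median, band for the quartiles) of autosomal sites in bins of 250 bp by signed distance from the nearest TSS, with the 1 kb limit shaded. Level and width rise sharply inside the shaded part, and in the bin just upstream of the TSS the quartiles of the difference are -0.14 and 0.19.

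A total of 12599 promoter sites (87.1%) covered a TSS and 1862 did not. Those that did had a median width of 810 bp and a median WT level of 6.94, and the others 360 bp and 4.68. Of all promoter sites, 13279 were nearest to a coding TSS and 1182 to a non-coding one, of which 141 belonged to microRNA genes and 9 to small nucleolar RNA genes. Promoter sites lay within 1 kb of a TSS for 15087 of the 24963 autosomal genes (60.4%), namely 66.9% of 20021 coding genes and 34.2% of 4942 non-coding genes. Of the 13351 genes nearest to a promoter site, 12381 had 1 such site, 852 had 2 and 118 had 3 or more, up to 5.

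The promoter sites nearest to it, at Cys1, Klf4 and BC030500, had midpoints exactly 1000 bp from a TSS and WT levels of 4.75, 4.27 and 8.03. The sites just outside it, at Prr12, Cox19 and Cacna1b, had WT levels of 6.68, 5.63 and 6.48. Klf4, which encodes a naive pluripotency factor, also had a wider promoter site of 1770 bp with a WT level of 7.83.

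The widest and the strongest promoter sites were nearly the same in both genotypes. The widest, of 5550 bp, lay between 4932441J04Rik and Pcdh7, a protocadherin gene, with levels of 9.79 in WT and 9.71 in DKO EpiLCs. The next widest were at Mex3b, which encodes an RNA-binding protein (4880 bp, 10.07 and 10.14), at Sox6os (4380 bp, 9.63 and 9.40), at Car10 (4350 bp, 9.67 and 9.41) and at Efna5, an ephrin gene (4280 bp, 9.65 and 9.49). Level and width did not single out the same sites. The highest level was at Sp4 (11.33 in WT and 11.27 in DKO EpiLCs) over 2140 bp. It was followed by 4932412D23Rik (10.94 and 10.88), 4930526I15Rik (10.89 and 10.75), Pdcd10 (10.77 and 10.71) and Esyt2 (10.75 and 10.76).

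Across all promoter sites the difference of the group means, DKO minus WT, had a median of 0.01 on the log2 scale and quartiles of -0.16 and 0.18. The medians were -0.09 at 1 to 5 kb and -0.12 over 5 kb from a TSS. The SD of the difference across sites was 0.363 at promoter sites and 0.676 over 5 kb. Of the 14461 promoter sites, 13310 (92.0%) lay within 1.5-fold, 608 (4.20%) were past it on the lower side in DKO EpiLCs and 543 (3.75%) on the higher side. Over all autosomal sites, 16% were past 1.5-fold lower and 8.55% higher. The shares were 15.9% and 8.82% at 1 to 5 kb, and 19.3% and 9.83% over 5 kb. Promoter sites therefore passed 1.5-fold less often than the background in both directions, and about as often one way as the other. That balance depended on the centre: subtracting the autosomal median of -0.08 from each difference gave 463 lower and 775 higher, and centring within 10 bins of the mean level gave 427 and 791.

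**Figure D2:**
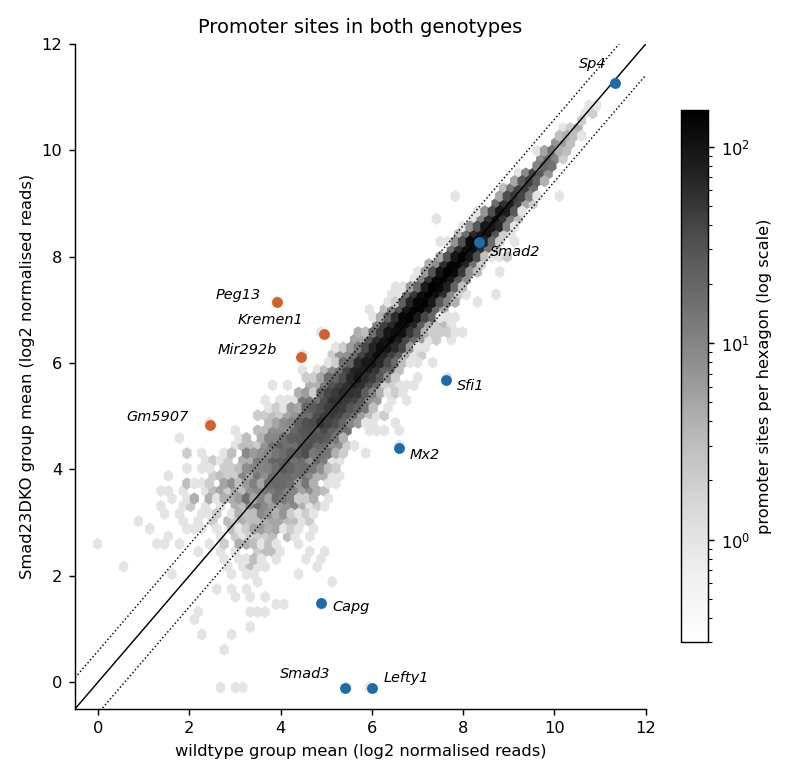
DKO against WT level (both log2 mean normalised reads) of the 14461 promoter sites, with shading for the number of sites on a log scale, a solid line for equal levels, dotted lines at 1.5-fold, and 11 sites marked by gene (blue lower and orange higher in DKO EpiLCs). Most sites lie near the diagonal and the cloud narrows as the level rises. Lefty1 and Smad3 sit at the lowest listed DKO level of -0.10.

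A promoter site has more reads than a distal one, and the spread of the difference shrinks as reads increase, so the shares were also compared within bins of the mean level. At a level of 6 to 7, 1.41% of 3272 promoter sites were past 1.5-fold lower and 1.22% higher, against 11.9% and 2.85% of 6351 sites over 5 kb from a TSS. The interquartile range of the difference there was 0.33 and 0.46. At 7 to 8 the lower shares were 0.802% and 7.21%, and the higher shares 0.327% and 1.48%. Within these bins, each of which spans a range of reads, the gap was wider for sites lower in DKO EpiLCs than for sites higher. At 5 to 6 the higher shares were 5.10% and 5.04%, with no gap. At 3 to 4, where a site has few reads, 21.1% of promoter sites were past 1.5-fold lower and 20.7% higher, against 29.7% and 18.5%. A mean level of at least 4 (16 reads) held for 13625 promoter sites (94.2%), of which 416 (3.05%) were lower and 357 (2.62%) higher, against 12.4% and 5.45% of all autosomal sites at that level.

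**Figure D3:**
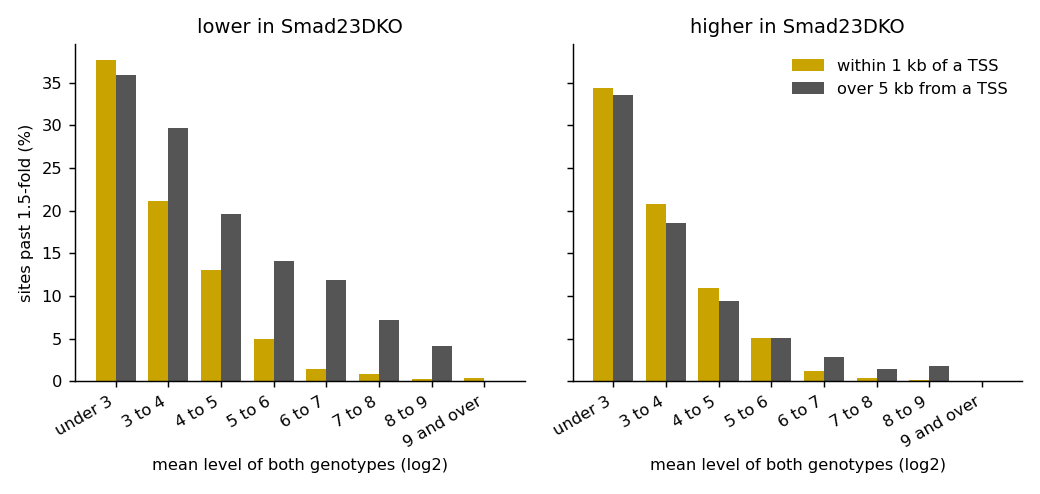
Share of sites past 1.5-fold (%, axis from 0) by mean level of both genotypes (log2), lower (left) and higher (right) in DKO EpiLCs, for sites within 1 kb of a TSS and over 5 kb from one. From a level of 5 to 6 up to 8 to 9, the lower share of promoter sites is under that of distal sites, with 4.98% against 14.1% at 5 to 6. The top bin holds 724 promoter and 67 distal sites.

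CpG content divided the promoter sites. In 500 bp around the midpoint, 7444 sites (51.5%) were CpG-rich, with an observed to expected CpG ratio over 0.75 and a GC content over 55%, while 2424 (16.8%) were CpG-poor, with a ratio under 0.48, and 4593 were in between. Over 5 kb from a TSS, 1.01% of sites were CpG-rich and 87.9% CpG-poor. CpG-rich promoter sites had a median width of 880 bp, a WT level of 7.04 and a level per kb of 7.20, and CpG-poor ones 460 bp, 5.48 and 6.61.

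CpG-poor promoter sites were more often lower in DKO EpiLCs than CpG-rich ones. Their median difference was -0.10 against 0.04, and 11.8% were past 1.5-fold lower and 6.39% higher, against 1.64% and 2.94% of CpG-rich sites. In each of 8 bins of mean level, the lower share was larger at CpG-poor than at CpG-rich promoter sites. At a mean level of 6 to 7, 4.29% of 420 CpG-poor sites and 0.617% of 1782 CpG-rich sites were past 1.5-fold lower, and 0.952% and 1.35% were higher. Of CpG-poor sites over 5 kb from a TSS, 20.6% were past 1.5-fold lower, more than the 11.8% of CpG-poor promoter sites. Their median WT levels were 4.80 and 5.48, so position and level are not separated in this contrast. CpG-rich sites far from a TSS were few (535), and 5.42% of them were lower and 4.30% higher.

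The shares also varied with position, gene type and width. Past 1.5-fold were 11.5% lower and 6.52% higher of the 460 sites with midpoints over 500 bp upstream, and 9.33% and 6.48% of the 879 as far downstream. Nearer the TSS the shares were 4.35% and 3.68% of 5266 upstream sites and 3.11% and 3.34% of 7856 downstream sites. Sites that covered no TSS had shares of 14.0% and 10.4%, against 2.76% and 2.77% of those that covered one. Sites of non-coding genes were past it more often (9.05% lower and 6.68% higher) than those of coding genes (3.77% and 3.49%), and their median WT level was also lower, at 5.84 against 6.76. Among the narrowest 25% of promoter sites, 11.9% were lower and 10.6% higher, and among the widest 25%, 0.553% and 0.249%.

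A divergent pair of genes, read outward from a shared promoter, lay within 1 kb of 1428 promoter sites (9.87%). These had a median width of 905 bp, a WT level of 7.21 and a DKO level of 7.31. Their median difference was 0.07 (0.00 at the other 13033), and 1.54% were past 1.5-fold lower and 3.15% higher.

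Short motif strings were counted on both strands in 300 bp around the midpoint. Each string that holds a CpG was more frequent at promoter sites than over 5 kb from a TSS. The GC box (GGGCGG), bound by Sp and Klf factors, was present in 64.1% of promoter sites and 13.3% of sites over 5 kb from a TSS, the ETS string CCGGAAG in 13.6% and 3.02%, the CRE string TGACGTCA in 2.32% and 0.294%, and the NRF1 core GCGCATGCG in 2.12% and 0.215%. The CCAAT box of NF-Y (CCAATCA) was about as frequent in both, at 7.61% and 6.35%, as was the YY1 string AAGATGG, at 6.28% and 7.56%. The E-box CACGTG was in 7.88% and 4.51%. Several strings with more A and T were rarer at promoter sites. The octamer ATGCAAAT of POU factors was in 1.03% and 3.76%. The Tcf/Lef string CTTTGAT was in 1.77% and 5.11%, and the FoxH1 string TGTGGATT in 0.353% and 1.27%. The Smad palindrome GTCTAGAC was in 0.194% and 0.230%, and the TATA box TATAAA in 3.86% and 13.8%. Over all autosomal sites these shares were 24.1% for the GC box, 3.15% for the octamer, 1.07% for FoxH1 and 11.6% for the TATA box. GC-rich strings are frequent in any GC-rich window and AT-rich strings are rarer there, so these shares follow base composition as well as the motif.

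By median, promoter sites with a given string differed little in the comparison of genotypes, but the shares past 1.5-fold lower varied. The median difference ran from -0.02 with the Tcf/Lef string to 0.08 with the CRE string. Past 1.5-fold lower were 7.38% of the 149 sites with the octamer, 7.81% of the 256 with Tcf/Lef and 7.53% of the 558 with TATA, against 2.80% of the 9276 with the GC box and 2.14% of the 1960 with the ETS string. Of the 51 sites with the FoxH1 string 5.88% were lower, and of the 28 with the Smad palindrome 0% were lower and 7.14% higher. The median WT level was 6.06 with TATA, 6.065 with Tcf/Lef and 6.54 with the octamer. It was 6.63 with the ETS string and 6.85 with the GC box, so string and level are not separated here.

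Smad3 and Lefty1 had the 2 most negative differences of all promoter sites. The Smad3 site (chr9:63757970-63758460, 490 bp, covering the TSS, with its midpoint at -221 bp from it) had a level of 5.42 in WT and -0.10 in DKO EpiLCs. The value of -0.10 is the lowest listed in DKO EpiLCs, held by 5 promoter sites and 153 autosomal sites, and was read as no reads. Since exon 1 of Smad3 was the target of the deletion, this site checks the label of the DKO clone. The Lefty1 site (chr1:180934390-180934960, 570 bp, midpoint at -347 bp from the TSS, which it does not cover) had 6.01 in WT and also -0.10 in DKO EpiLCs. The size of both differences is set by that floor, so no fold is given. Smad2, whose tm1Rob allele is carried by the DKO clone, had a promoter site of 1390 bp with 8.35 in WT and 8.28 in DKO EpiLCs, so its promoter stayed accessible.

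The other promoter sites with the most negative differences, at a mean level of at least 4, fell into 2 groups. Capg (4.89 to 1.48), Vamp5 (5.11 to 1.94), Atoh8 (4.91 to 2.24) and Sh2d6 (4.90 to 2.47) lie close together on chromosome 6, in a stretch described below. The others were Ifit1bl2 (4.78 to 2.18) and Mx2 (6.59 to 4.40), both interferon-induced, Sfi1 (7.62 to 5.69), a centrin-binding protein gene, and Ramp2 (4.70 to 2.86), which encodes a receptor activity modifying protein. A second Sfi1 site, 540 bp wide, had 8.82 in WT and 7.68 in DKO EpiLCs. The Mx2 site lay upstream, at -886 bp from the TSS, and a second one at the TSS had 5.08 and 4.07.

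Peg13 had the most positive difference of all, 3.21. This site (chr15:72809840-72810920, 1080 bp, covering the TSS) had 15.2 reads in WT and 141 in DKO EpiLCs, or levels of 3.93 and 7.14. Peg13 is an imprinted RNA gene within an intron of Trappc9, and the Trappc9 promoter had 8.56 and 8.51, so the difference did not extend to the host gene's TSS. At a mean level of at least 4, the next were Gm5907 (2.45 to 4.84), Amt, a glycine cleavage enzyme gene (3.81 to 5.56), Rbm44, an RNA-binding protein gene (3.62 to 5.35), and Platr9 (3.06 to 4.75). They were followed by the microRNA gene Mir292b (4.45 to 6.11), Kremen1 (4.96 to 6.54), Rpl39l (3.43 to 5.00), Pisd (3.71 to 5.17) and A430093F15Rik (3.55 to 4.99). Of these 10, 8 had WT levels under 4, where a site holds fewer than 16 reads, so their differences rest on small WT values.

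The Mir292b site (chr7:3218940-3219790, 850 bp) lies in the miR-290 cluster, which makes the most abundant microRNAs of mouse embryonic stem cells. It lay within 1 kb of the starts of 7 microRNA genes of the cluster, and 4 mature microRNAs of the plus strand were encoded wholly inside it. Their sequences, from RefSeq on GRCm38.p6, are given because the site lies over the hairpins themselves, with the seed (bases 2 to 8) in capitals.
mmu-miR-291a-3p: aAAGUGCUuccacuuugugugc
mmu-miR-292a-5p: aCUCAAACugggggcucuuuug
mmu-miR-291b-5p: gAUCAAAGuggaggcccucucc
mmu-miR-291b-3p: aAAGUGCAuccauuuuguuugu
The 3p arms of miR-291a and miR-291b share 6 of the 7 seed bases (AAGUGC), the seed family for which the cluster is known. For microRNA genes the annotated start is that of the hairpin, not of the longer primary transcript.

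Among promoter sites with a mean level of at least 7, where the spread was smallest, 36 of 6253 were past 1.5-fold lower (0.576%) and 14 higher (0.224%), against 2.45% and 0.702% of all autosomal sites at that level. Of the 36, 13 lay in the stretch on chromosome 6. Outside it, the most negative were Scn7a (8.0 to 6.58), Dcn, which encodes the matrix proteoglycan decorin (8.36 to 7.11), the second Sfi1 site and Gbp2, an interferon-induced GTPase gene (7.90 to 6.84). On the higher side were Samd12 (7.81 to 9.13), Akr1e1, an aldo-keto reductase gene (7.47 to 8.74), Bzw1 (6.48 to 7.44), Pyroxd1 (7.55 to 8.30), Ppia, the cyclophilin A gene (6.89 to 7.63), and Hmga1, a chromatin architecture protein gene (7.22 to 7.85). These genes were picked by this level after their values were seen.

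A stretch of chromosome 6, chr6:68829320-80057380 (11.2 Mb), held 36 promoter sites, and all 36 were lower in DKO EpiLCs. It was found as the longest run in which the median difference of 25 neighbouring autosomal sites stayed under -0.5, so it was chosen by the difference and its values are a description. Of the 36, 35 were past 1.5-fold, with a median difference of -1.12, against 3.74% and a median of 0.00 for the promoter sites on the rest of the chromosome. They included broad, CpG-rich promoters of widely used genes, for example Eif2ak3, a kinase of the unfolded protein response (9.07 to 8.31), Rmnd5a (8.93 to 8.04), Rpia, of the pentose phosphate pathway (8.88 to 7.98), Immt, of the mitochondrial inner membrane (8.08 to 7.24), and Kdm3a, a histone demethylase (7.67 to 6.63). Tcf7l1, which encodes the Wnt pathway repressor Tcf3, had 8.67 and 7.31, and Ctnna2 had 10.15 and 9.10. The least negative was Lrrtm4 (6.6 to 6.19), near the end of the stretch.

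**Figure D4:**
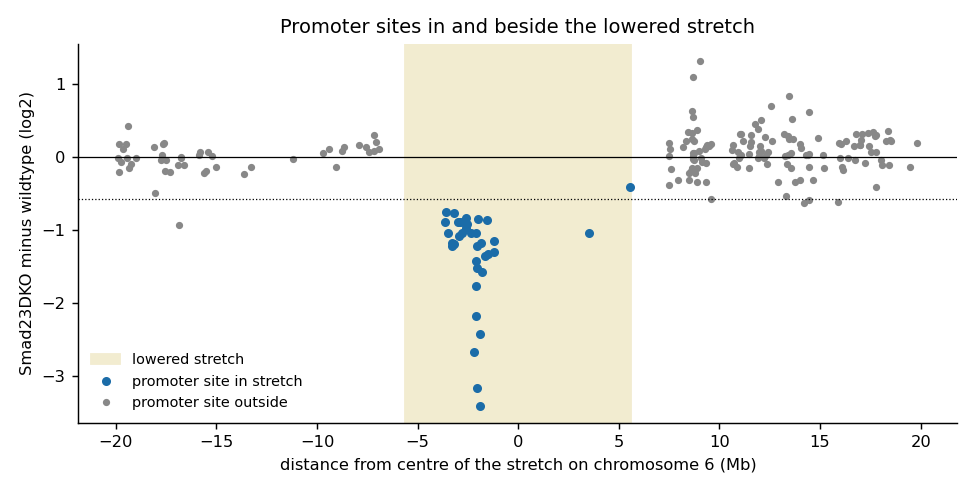
Difference of each promoter site (DKO minus WT, log2) against its distance from the centre of the lowered stretch of chromosome 6 (Mb), within 20 Mb, with the stretch shaded and a dotted line at 1.5-fold lower. The 36 sites in the stretch all lie under 0, from -0.41 at Lrrtm4 to -3.41 at Capg, and the sites on both sides of it scatter around 0.

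Within the stretch, the sites between 72 and 73 Mb reached furthest down, and all 17 of them were past 1.5-fold. Since the stretch was seen in 1 DKO clone, clone and genotype cannot be told apart for it, and its cause was not tested. Without the stretch, 573 of 14425 promoter sites (3.97%) were past 1.5-fold lower. By chromosome, the lower share was 8.03% on chromosome 6, and on the others it ran from 1.79% on chromosome 8 to 5.71% on chromosome 16. The higher share ran from 1.84% to 7.37%, with the most on chromosome 17. Median differences of promoter sites per chromosome lay between -0.07 and 0.08, and those of sites over 5 kb from a TSS between -0.25 and -0.05.

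Lists of genes with known roles were then followed at their promoter sites. The lists were written with earlier results of these data known, so their counts are descriptions, to be read against the 4.20% lower and 3.75% higher of all promoter sites. In the Nodal and activin list, 18 of 21 genes had a promoter site and 2 of 22 sites were past 1.5-fold, those at Lefty1 and Smad3. Nodal itself, the ligand, had 5.97 in WT and 5.91 in DKO EpiLCs. Among receptors, Acvr2a had 8.97 and 8.87 and Acvr1b, a type I receptor gene, 6.46 and 6.56. Smad4, the shared partner of Smad2 and Smad3, had 7.53 and 7.49, and Smad7, the inhibitory Smad that the pathway induces, 7.73 and 7.34. Other target genes, Pmepa1 (6.93 and 6.59) and Skil (8.09 and 8.10), also stayed within 1.5-fold. Lefty2, Tdgf1 and Cer1 had no promoter site. In the BMP list, which holds the Id genes and the ligands and Smads of that branch, none of 20 sites was past 1.5-fold, with differences from -0.41 to 0.49.

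The pluripotency lists were also mostly within 1.5-fold. Of 12 sites of naive genes, 1 was lower, at Nanog (5.64 to 4.90), while Klf2 had 7.43 and 7.71, Klf5 8.54 and 8.60, and Tfcp2l1 7.41 and 7.40. None of 13 sites of core genes was past it. Pou5f1 had 7.71 and 7.72 and Sox2 6.25 and 6.63, and 11 of the 13 sites were above 0, with a median of 0.13. Of 17 sites of primed epiblast genes, 1 of the 3 at Lef1 was lower (4.71 to 4.00). Fgf5 had 6.63 and 6.86, Pou3f1 7.18 and 7.23, and Dnmt3b 5.66 and 5.63. Otx2 had no promoter site. All 3 lists had accessible promoters in both genotypes, and so had genes of the lineages that EpiLCs can enter, so promoter sites alone do not separate the markers of the labelled cell type from those of others.

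The 19 sites of primitive streak, mesoderm and endoderm genes had a median difference of -0.08, and none was past 1.5-fold higher. Foxa2 (9.13 and 8.74), Eomes (8.69 and 8.46) and Sox17 (7.61 and 7.74), which head these lineages, had broad sites of 3200, 2420 and 1870 bp. T had 4.24 and 4.60. Of 20 early neural sites, 3 were lower, at En1 (4.39 to 3.36), Gbx2 (5.88 to 5.21) and Neurog2 (4.14 to 3.52), and none was higher, with a median of -0.26. En1 and Neurog2 each had a stronger site within 1.5-fold (6.67 and 6.77 at En1, 5.39 and 5.31 at Neurog2). Sox1 had 5.91 and 6.15, and the 4 sites of Pax6 ran in difference from -0.43 to 0.08. Of 27 trophoblast and extra-embryonic sites, 4 were lower, at Elf5, Hand1, Igf2 and Wnt7b, and 3 were higher, at Krt18, Tfap2a and Tle3. Of these, Hand1 was 3.55 and 2.35, and Krt18, a keratin of simple epithelia, 4.53 and 5.23. Stronger sites at Hand1 (6.29 and 5.78) and Tfap2a (7.29 and 7.06) were within 1.5-fold. Cdx2 (7.24 and 7.01) and Gata3 (8.50 and 8.52), trophoblast factors, were accessible in both genotypes.

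**Figure D5:**
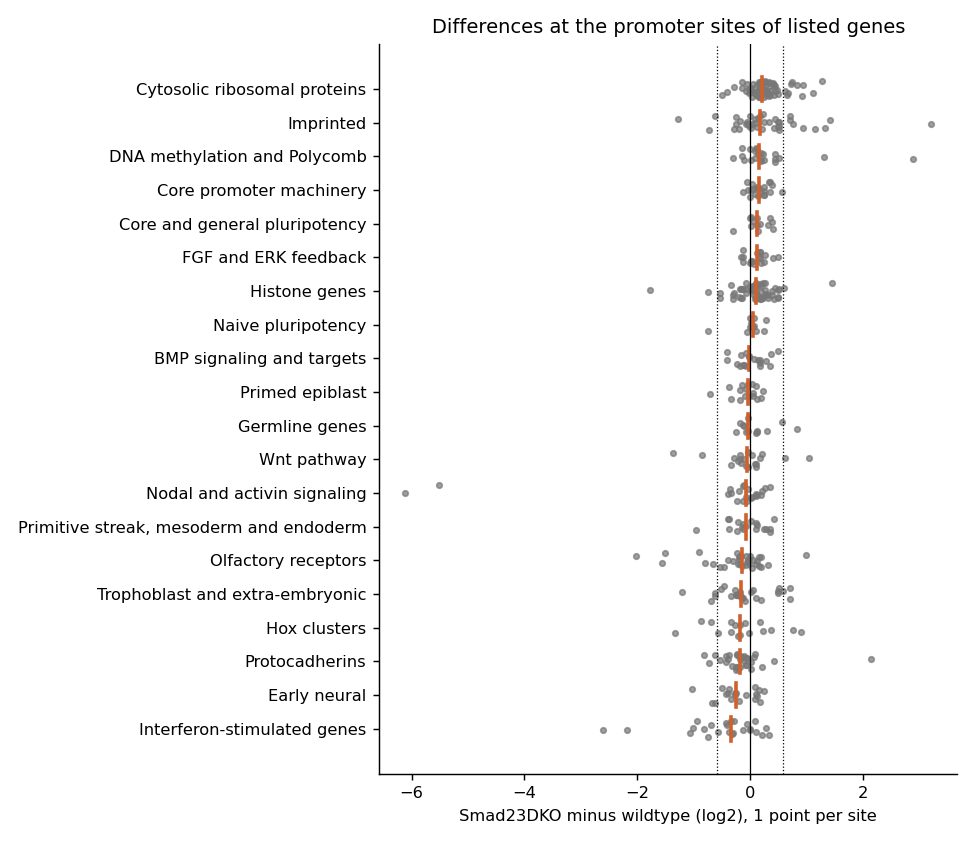
Difference (DKO minus WT, log2) of each promoter site of the genes on 20 lists, 1 grey point per site, an orange bar for the median of the list and dotted lines at 1.5-fold; lists are ordered by median, and 2 lists of over 80 sites are left out. Ribosomal protein genes sit highest, with a median of 0.22. Interferon-stimulated genes, a list made after low values at some of them had been seen, sit lowest, with a median of -0.33.

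Imprinted genes, expressed from 1 parental allele, had sites past 1.5-fold in both directions. Of 39 sites of 29 genes, 8 were higher and 3 lower, with a median of 0.18. Besides Peg13, higher sites were those at Zdbf2 (5.10 to 6.03), Zrsr1 (6.26 to 7.02), 2 at Mest (3.29 to 4.44 and 4.18 to 5.51), and 1 each at Gnas (2.80 to 4.21), Gnasas1 (4.06 to 4.76) and Peg10 (3.49 to 4.20). Each of these is known to be expressed from the paternal allele in at least 1 of its transcripts. Lower sites were at Snrpn (4.52 to 3.24), Igf2 (6.04 to 5.41) and the remaining site of Mest (4.25 to 3.53), and these genes are paternally expressed as well. At Gnas, Gnasas1, Zdbf2, Peg10 and Snrpn a stronger site of the same gene was within 1.5-fold. Some other imprinted promoters were alike in both genotypes, such as Grb10 (8.31 and 8.29), Ndn (8.37 and 8.45) and Slc38a4 (6.09 in both). Others were higher but within 1.5-fold, such as Kcnq1ot1 (6.5 and 7.01), Airn (4.75 and 5.26) and Igf2r (5.42 and 5.87). Of all 39 sites, 26 were above 0 and 12 below.

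The promoter sites of housekeeping lists were mostly a little higher in DKO EpiLCs. None of 71 sites of cytosolic ribosomal protein genes was past 1.5-fold lower, 10 were higher and 61 were above 0. The 10 were those of Rpl10a, Rpl14, Rpl23, Rpl23a, Rpl37a, Rpl4, Rps10, Rps18, Rps24 and Rps25, from Rps25 (5.98 to 6.6) to Rpl23a (3.81 to 5.08). In the core promoter machinery list, which holds subunits of RNA polymerase II and its general factors, none of 22 sites was past it and 18 were above 0, with a median of 0.15. Of 57 sites of the histone list, 2 were lower (H2bc6 and H2bu2) and 2 higher (H2ac18 and H2ac22). At H2bc6, H2bu2 and H2ac22 a stronger site was within 1.5-fold. That list also held H13 (6.5 and 6.6) and H19 (4.39 and 4.89), which are not histone genes, so its counts are not of histone genes alone. Genes of DNA methylation and Polycomb had 22 sites, with none lower and 2 higher, at Tet3 (3.87 to 5.18) and Mtf2 (1.74 to 4.62), where each gene's stronger site was within 1.5-fold. FGF and ERK feedback genes had 19 sites within 1.5-fold, among them Dusp6 at 9.45 in both genotypes. Of 20 sites in the Wnt list, Tcf7l1 was lower and Rnf43 higher (5.35 to 5.97), and Tcf7 had 1 site of each kind.

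Interferon-stimulated genes were looked at after Mx2, Ifit1bl2, Gbp2, Irgm1 and Herc6 had been seen among the most negative sites, so this list was made after the values were known. Of its 46 genes, 26 had a promoter site, and of their 25 sites 8 were past 1.5-fold lower and none higher, with 20 under 0. Irgm1 (7.61 to 6.80) and Herc6 (7.48 to 6.54) were among the genes that prompted the list. Beyond those genes, only Rsad2 (5.83 to 5.08) and Usp18 (5.97 to 5.27) were past 1.5-fold lower. The count and median of the list are therefore set in part by how it was made. Among regulators of the response, Irf1 had 5.97 and 6.18 and Irf9 6.26 and 6.37, both within 1.5-fold. Of the 25 sites, 5 were CpG-rich.

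Gene families differed in how often their promoters were listed at all. Of 1119 olfactory receptor genes, which are mostly silent outside the nose, 35 (3.13%) had a promoter site. Of these sites, 6 were lower (Olfr1272, Olfr1349, Olfr1497, Olfr272, Olfr279 and Olfr419) and 1 higher (Olfr855). Of 39 Hox genes, 13 had one, and of 17 sites 3 were lower (Hoxa5, Hoxc4 and Hoxc5) and 2 higher (Hoxd9 and Hoxd11). Of 394 Zfp genes, 336 had one, and of 358 sites 13 were lower (Zfp174, Zfp334, Zfp362, Zfp455, Zfp469, Zfp532, Zfp729a, Zfp747, Zfp750, Zfp764, Zfp874b, Zfp933 and Zfp994) and 11 higher (Zfp36, Zfp385b, Zfp523, Zfp572, Zfp65, Zfp729b, Zfp819, Zfp82, Zfp85os, Zfp879, Zfp940 and Zfp978), with Zfp65 and Zfp85os at the same site, near the shares of all promoter sites. Protocadherin genes had 33 sites at 33 of 68 genes, with a median WT level of 4.77, 3 lower (Pcdha12, Pcdhgb4 and Pcdhgb5), 1 higher (Pcdhga5) and a median difference of -0.18. MicroRNA genes and their host transcripts had 194 sites, with 26 lower and 15 higher, at a median WT level of 5.69. The genes within 1 kb of the lower sites were Mir100hg, Mir135b, Mir142, Mir142b, Mir17hg, Mir184, Mir1901, Mir1932, Mir1941, Mir1943, Mir19b-1, Mir344i, Mir615, Mir6335, Mir6347, Mir6353, Mir7026, Mir7045, Mir7228, Mir761, Mir7660, Mir7687, Mir7688, Mir8112, Mir9-3hg, Mir92-1 and Mir99ahg, and those of the higher sites were Mir1258, Mir143, Mir1934, Mir290a, Mir290b, Mir291a, Mir291b, Mir292, Mir292b, Mir293, Mir3063, Mir5099, Mir5107, Mir7029, Mir7045, Mir7234, Mir759, Mir8110, Mir8111 and Mir8117, and some of these share 1 site. Germline genes, many of them silenced by promoter methylation, had 13 sites with none lower and 1 higher, at Rpl10l (5.99 to 6.83).

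Where a gene had several promoter sites, their differences were set side by side. In 970 genes with at least 2, the median range of the difference within a gene was 0.32, and in 87 it was over 1. The quartiles over all promoter sites were -0.16 and 0.18. This range alone therefore does not show that sites of 1 gene were closer than sites of different genes. In 11 of the 970, 1 site was past 1.5-fold lower and another higher. Apart from Mest and Tcf7 these included Srsf1, a splicing factor gene, whose TSS site (5.87 to 6.26) lay between a lower (3.94 to 2.99) and a higher (3.20 to 4.31) neighbour, and Cd93, where the TSS site was lower (4.83 to 3.56) and a weak one 925 bp downstream higher (1.12 to 2.96). Most of these opposed sites had mean levels near 4 or less, where the spread across all promoter sites was widest.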

How the data were processed

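ATAC-seq libraries came from 3 differentiations each of a WT and a Smad2/3 DKO clone, and 1 further library from Tn5-treated genomic DNA. According to the methods of the study, alignment to mm10 used bowtie2 and required concordant pairs, PCR duplicates were taken out with Samtools along with multiply mapped and blacklisted reads, DANPOS2 defined the sites on all triplicates against the genomic DNA library, and DiffBind compared the reads at the sites. Versions, the normalisation DiffBind used and any shift of read ends for Tn5 are not given in the sources used here. A shift would move site borders by a few bases.

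The deposited values are, at 75880 sites, the authors' log2 mean of normalised reads (the concentration) over both genotypes and within each. It also holds the authors' fold, p-value and FDR columns, which are their own comparison and were not used. No column holds a value per library, so the precision of a value, which depends on reads per library, could not be computed and no test was fitted.

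The TSSs were 31603 positions of 45756 curated RefSeq transcripts of 26180 genes on GRCm38.p6, the same build. Coordinates are printed as deposited, and 1 promoter site has a rounded end, so its width and midpoint are approximate. Differences were computed as DKO minus WT concentration, and 1.5-fold (0.585 on the log2 scale) was used as a threshold of size. Levels per kb subtract the log2 width in kb. GC and CpG were counted in 500 bp, and 12 motif strings in 300 bp, around the midpoint. Runs of lowered sites were searched among sites with a mean concentration of at least 4. A running median over 25 sites and a limit of -0.5 over at least 1 Mb were used.

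Named sites are Smad2 and Smad3, the 10 most positive and 10 most negative differences at a mean concentration of at least 4 (1 site per gene), the 5 widest, the 5 with the highest WT level, the 3 on each side of the 1 kb limit, and, for 22 gene lists, the genes past 1.5-fold and up to 4 that head the list. Any other gene was picked with its values in view. Results for some listed genes are not reported here. The promoter sites, lists and thresholds were chosen with earlier results of these data known. Alternatives were other distance limits, overlap with a TSS, coding TSSs alone, sex chromosomes added, minimum levels, 1 site per gene, no lowered stretch, centred differences and a 2-fold threshold. The code was tested on simulated data. Python 3.11.15, numpy 2.4.6, pandas 2.3.3, matplotlib 3.10.9 and pysam 0.24.0 were used.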

Additional observations from a re-analysis of the deposited data

How the results depend on the processing

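No paired analysis was possible because the deposited table holds 1 mean per genotype and no value per differentiation, and for the same reason no differentiation could be left out. In values that moved, a limit of 0.5 kb gave a promoter share of 17.8% of autosomal sites with WT and DKO median levels of 6.76 and 6.79, and a limit of 2 kb gave 22.2%, a width of 700 bp, and 6.49 and 6.52. Requiring overlap with a TSS gave 17.1%, 810 bp, 6.94 and 6.96, with 349 sites lower and 350 higher than 1.5-fold. Coding TSSs alone gave 18.4%, 770 bp, 6.77 and 6.80, and 1 site per gene 18.1%, 6.76 and 6.80. A mean level of at least 4 gave 23.3%, 780 bp, 6.81 and 6.85, with 357 higher, and at least 6, an alternative chosen after seeing the data, gave 47.4%, 970 bp, 7.40 and 7.42, with 82 lower and 54 higher. Centring on all autosomal sites moved the median difference to 0.09, and centring within 10 bins of the mean level to 0.05. A 2-fold threshold left 164 lower and 126 higher. For the shares, widths and levels that moved under another definition or minimum level, the set of sites differs by construction. The other 36 values moved by less than their 95% interval over sites or, for counts, by less than 1.5 times. For the WT median level that interval was 6.66 to 6.73. Such an interval treats sites as the units and holds no spread between differentiations. Limits: the deposited means carry no error, weak sites hold few reads, and the scheme by which reads were normalised between genotypes is unknown, so a shift of all differences by about the autosomal median of -0.08 cannot be told apart from a difference in scaling.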
